A study of Mus musculus with 8 samples.

Results

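The expression of 8 interferon-inducible GTPase genes of the mouse was followed in irradiated and control intestinal organoids: Gvin1, Irgm1, Irgm2, Igtp, Iigp1, Gbp2, Gbp3 and Gbp7. They were taken by symbol from the deposited tables, where all 8 were found among 55416 genes. The set was chosen by a result of these data: the measured day 4 levels, lower for Gvin1 and higher for antiviral genes after irradiation, led to its relatives being listed. The day 4 values of the 8 genes are therefore a description, with no test. There were 4 groups of 2 libraries: organoids given an X-ray dose of 6 Gy and harvested on day 4 or on day 7, and control organoids of the same days that were not irradiated. All groups were C57BL/6 small intestinal organoids, cultures of gut epithelial cells, from mice 4 to 8 weeks old, and all carried Rosa26-rtTA Tg/Tg together with Col1A1-TetO-OSKM Tg/Tg. Those alleles form an inducible transgene for reprogramming factors, and the labels do not say that it was switched on in these samples, from when the days were counted, or whether the libraries of a group came from separate cultures. The p-values below therefore measure the spread between these libraries, shared over the 4 groups in the main fit, which may be technical.

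Interferon-inducible GTPases are large proteins of cell-autonomous defence that gather on the membranes of vacuoles holding bacteria or parasites. In the mouse, the immunity-related GTPases (IRGs) include effectors such as Iigp1 and regulators such as Irgm1, Irgm2 and Igtp, which guard the cell's own membranes. The guanylate-binding proteins (Gbp2, Gbp3, Gbp7) coat vacuoles and free bacteria and help to trigger inflammasomes, and Gvin1 belongs to the very large inducible GTPases, whose function is little known. Type II interferon is known to act on these genes in part through IRF1, and type I and III interferons in part through STAT2 and IRF9.

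The promoters of these genes are shown because they hold the sequences through which interferon factors are known to act. RefSeq promoter sequences of 300 bases (GRCm38.p6) were matched for 6 of the 8 genes, with none for Gvin1 and Iigp1. The 80 bases before each start are printed 5′ to 3′ on the gene's strand, with matches in capitals to GAAA, any 2 bases and GAAA again, on either strand, which is the core of an interferon-stimulated response element.
Irgm1: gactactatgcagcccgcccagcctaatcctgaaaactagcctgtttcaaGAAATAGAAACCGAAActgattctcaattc
Irgm2: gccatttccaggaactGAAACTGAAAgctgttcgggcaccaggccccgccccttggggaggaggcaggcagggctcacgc
Igtp: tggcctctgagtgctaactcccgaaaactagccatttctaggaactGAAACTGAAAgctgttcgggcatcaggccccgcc
Gbp2: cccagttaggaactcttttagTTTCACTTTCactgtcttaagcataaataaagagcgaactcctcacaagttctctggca
Gbp3: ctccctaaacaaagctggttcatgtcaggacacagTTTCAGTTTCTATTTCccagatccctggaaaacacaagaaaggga
Gbp7: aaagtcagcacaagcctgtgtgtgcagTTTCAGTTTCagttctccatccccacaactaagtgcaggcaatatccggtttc
These windows lie at chr11:48871421-48871500 on the minus strand for Irgm1, and on the plus strand at chr11:58214897-58214976 for Irgm2, chr11:58199476-58199555 for Igtp, chr3:142620583-142620662 for Gbp2, chr3:142559964-142560043 for Gbp3 and chr3:142530256-142530335 for Gbp7.

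All 6 genes held the motif in this window, where Irgm1 and Gbp3 each had 2 overlapping matches. Over all 32851 promoters, 0.81% held it in the same 80 bases and 3.44% in 300 bases. Among the antiviral genes listed for comparison, 15 of the 24 genes with a promoter entry held it in 300 bases. A second motif, TTCNNNGAA, the core of a gamma-activated sequence, read the same on either strand and was found in the 300 bases of Irgm2, Igtp and Gbp7, against 8.3% of all promoters of that length. The promoters of Irgm2 and Igtp, which are neighbouring genes in the annotation of chromosome 11, shared an identical stretch of 55 bases. No other pair of these genes shared more than 13. A match describes letters and does not show that a factor binds there. Gbp3 has a second promoter entry without the motif, which is not printed.

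The libraries held 7541764 to 16054269 expected counts, the estimates of reads per gene that the authors deposited, and levels are given in CPM, counts set against the size of the library, where a single count was worth between 0.061 and 0.12. Of 16 immune cell markers 7 had no count in any library, and their summed level was 7.53 to 9.36 CPM in irradiated organoids of day 4, against 2.56 to 4.14 CPM in controls of that day. The day 7 sums were 3.16 to 4.33 CPM in irradiated organoids and 2.94 to 3.54 CPM in controls. Both immune markers with enough counts for a test were called higher at day 4, as were 20% of all tested genes. Csf1r, a receptor of macrophages, had 1.83 and 1.63 CPM in irradiated organoids, against 0.0852 and 0.061 CPM in controls (log2 difference 4.39, edgeR adjusted p = 0.00105). Itgam, an integrin of myeloid cells, had 4.3 and 6.64 CPM in irradiated organoids, against 2.13 and 3.23 CPM in controls (log2 difference 1.01, adjusted p = 0.0463). Ptprc, which marks leukocytes, had 0 to 2 counts in each library. All 10 epithelial markers were detected, at a summed 7390 to 8550 CPM in irradiated organoids and 4960 to 5010 CPM in controls at day 4, and at 6520 to 6670 CPM in irradiated organoids and 4870 to 4920 CPM in controls at day 7. The part of these shifts in the results below was not tested.

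One library stood apart in interferon genes. Replicate 2 of the irradiated organoids at day 4 had the highest level of the 8 libraries in 21 of 25 tested antiviral genes, against 22% of all 14063 tested genes. The antiviral genes summed to 398 CPM in replicate 1 and 843 CPM in replicate 2 of the irradiated group, against 337 and 331 CPM in controls of day 4. The same sum was 270 and 290 CPM in irradiated organoids and 299 and 289 CPM in controls at day 7. Results that rest on this library are given with and without it.

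Only 4 of the 8 genes had enough counts for the fit across genes: Gvin1, Irgm1, Irgm2 and Igtp. Iigp1, Gbp2, Gbp3 and Gbp7 had 6, 2, 8 and 51.83 expected counts in all 8 libraries together. In TPM, the deposited unit that also allows for gene length, the control libraries of both days gave one order. Gvin1 stood first at 20.62 to 24.39 TPM and Irgm1 second at 9.83 to 12.21 TPM. Igtp followed at 0.48 to 0.91 TPM and Irgm2 at 0.27 to 0.67 TPM, ranges that overlap, and Gbp7 stood at 0.1 to 0.23 TPM. These GTPases were therefore present at very unequal levels in the cultures. The place of Gvin1 depends on how reads were divided among related copies, described below.

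**Figure D1:**
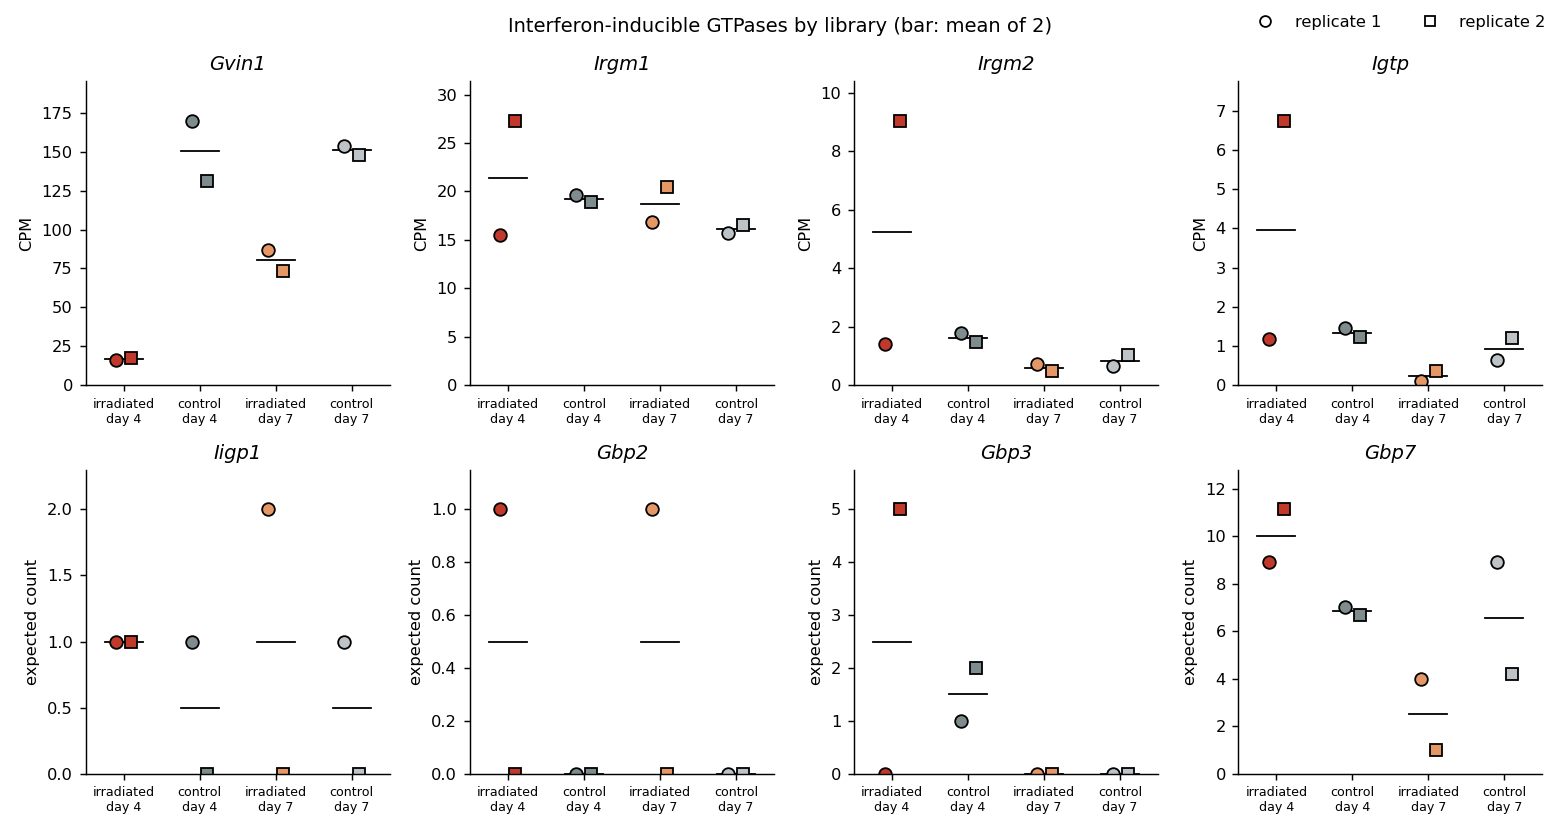
Levels of the 8 GTPases in every library, with CPM for the 4 genes tested (top row) and expected counts for the 4 others (bottom row), by group, with circles for replicate 1, squares for replicate 2 and a bar at the mean. Gvin1 was lowest in both irradiated day 4 libraries, while Irgm1, Irgm2 and Igtp were highest in replicate 2 of that group.

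Of the 4 tested GTPases, Gvin1 was the one whose irradiated libraries lay below the controls of the same day on both days. It had 15.9 and 17.6 CPM in irradiated organoids at day 4, against 170 and 131 CPM in controls of day 4. It had 87.1 and 73.2 CPM in irradiated organoids at day 7, against 154 and 148 CPM in controls of day 7. The irradiated and control libraries did not overlap on either day. The irradiated ones lay lower without overlap in 31.8% of all tested genes at day 4 and in 32.6% at day 7. Both irradiated day 4 libraries of Gvin1 lay close together. The difference at day 4 was -3.17 on the log2 scale (SE 0.149), which is 8.98-fold lower. In this bulk RNA, fewer cells that express a gene and less RNA per cell cannot be told apart.

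At day 7, where these genes could be tested, Gvin1 fell by 0.92 on the log2 scale (SE 0.13, 95% interval -1.21 to -0.62, edgeR adjusted p = 0.0044), which is 1.89-fold lower, in both of the irradiated libraries. It was the 1 gene called of the 4 tested, against 8.65% of all tested genes, with 4.7% called higher and 3.95% lower. The call was lost on deposited TPM (adjusted p = 0.0616 with 1 added and 0.0711 with 0.1 added before the log), without replicate 1 of the controls (0.0548) and without replicate 2 of the irradiated organoids (0.0731), while the log2 difference stayed between -1.02 and -0.73 over all alternatives. A lone library in such a fit is assumed to vary like the other groups.

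Between the days, Gvin1 was 2.26 higher on the log2 scale (SE 0.15) in irradiated organoids at day 7 than at day 4, and differed by 0.0049 (SE 0.126) between control organoids of day 7 and day 4. Both comparisons use the day 4 libraries and have no test. The day 7 effect less the day 4 effect was 2.25 on the log2 scale (SE 0.196), likewise not tested. That interaction term called 10.1% of all tested genes, 4.6% with a positive and 5.51% with a negative difference. Within a library, the TPM of Gvin1 over that of Irgm1 was 0.25 and 0.155 in irradiated organoids, against 2.12 and 1.69 in controls, at day 4. The day 7 ratios were 1.29 and 0.889 in irradiated organoids, against 2.41 and 2.23 in controls. So in deposited TPM Gvin1 stood above Irgm1 in every control library and below it in both irradiated day 4 libraries. The irradiated day 7 libraries lay on either side of equality. Reads of Gvin1 were divided among related copies, as described next, so its rank against Irgm1 is uncertain.

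The counts of Gvin1 are shared with related copies. Gvin1 lies on chromosome 7 in a cluster of very large GTPase genes and pseudogenes, and its annotated transcripts (GENCODE M21) hold 9005 words of 50 bases, of which 76, or 0.844%, occur in no other gene. Gm4070, annotated as protein-coding, holds 98.3% of them and Gm8979, an unprocessed pseudogene, holds 22%. The expected count of Gvin1 was not a whole number (within 0.001, the tolerance used throughout) in any of the 8 libraries, and Gm4070 had 488.26 counts in replicate 2 of the day 4 controls and 0 in the other libraries. The division of reads within the cluster is thus an estimate, and a level of Gvin1 alone is uncertain.

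Gm8979 carried most of the counts of this cluster. It had 214 and 211 CPM in irradiated organoids, against 2200 and 2030 CPM in controls, at day 4. On day 7 the levels were 924 and 905 CPM in irradiated organoids, against 2030 and 1980 CPM in controls. It ranked 28 to 30 among all genes by count in the control libraries, against 631 and 669 in the irradiated day 4 libraries, and its count was 10.6 to 15.4 times that of Gvin1. 9130208D14Rik, a further pseudogene of the cluster with 55.1% of its words unique, had 150 and 156 CPM in irradiated organoids, against 1070 and 884 CPM in controls, at day 4. Its day 7 levels were 574 and 549 CPM in irradiated organoids, against 959 and 923 CPM in controls.

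When the 11 copies were summed, which does not depend on how reads were divided among them, the cluster had 387 and 389 CPM in irradiated organoids, against 3530 and 3180 CPM in controls, at day 4. The day 7 sums were 1600 and 1550 CPM in irradiated organoids, against 3230 and 3130 CPM in controls. The sums of expected counts were whole numbers in 7 of the 8 libraries and 0.36 from one in the other, and none of the 50-base words of the copies occurred in a gene outside the 11. Gvin1 made up 4.12% to 5.46% of each sum. The summed cluster was 3.11 lower on the log2 scale (SE 0.107) at day 4. Its day 7 difference was -1.02 on the same scale (SE 0.0997, edgeR adjusted p = 0.000596), an alternative to the Gvin1 row that was added after the data had been seen, and its adjusted p stayed at or under 0.0325 in every setting run on the sum, log2(TPM + 1) and each left-out library included.

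**Figure D2:**
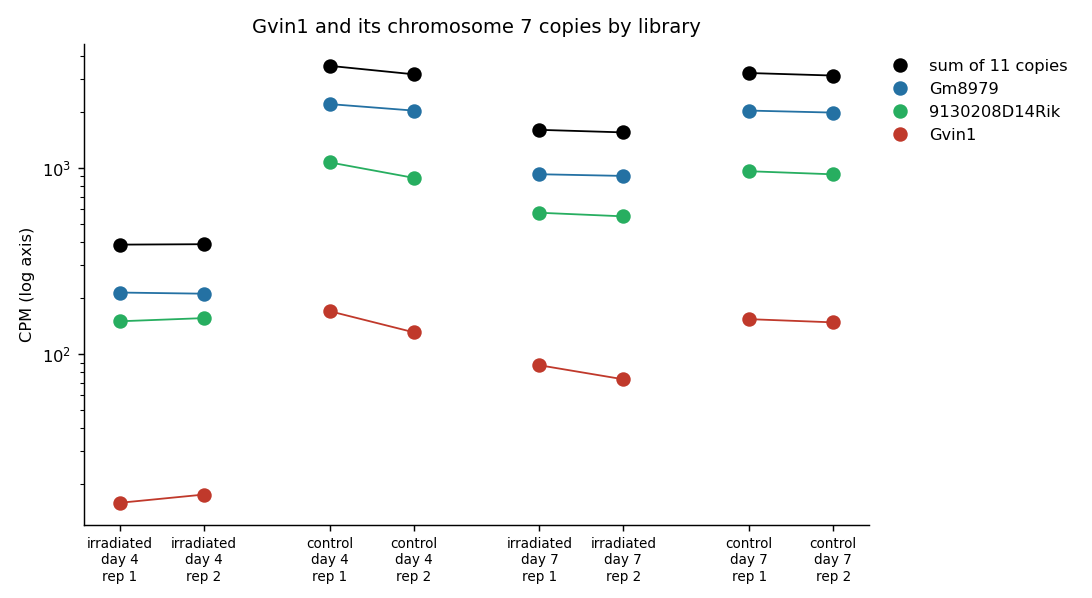
CPM on a log axis of Gvin1, of the pseudogenes Gm8979 and 9130208D14Rik and of the sum of the 11 chromosome 7 copies, in each of the 8 libraries, with the 2 replicates of a group joined by a line. All 4 lines are lowest in irradiated organoids at day 4, with sums of 387 and 389 CPM, and lie between that group and the controls in irradiated organoids at day 7.

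The genes whose pattern over the 8 libraries was most like that of Gvin1 were found by the root mean square difference of centred log2 CPM among 10515 genes, where the median gene stood at 1.29. The nearest was Gm8979 at 0.145, then Gm45912 at 0.192 and 9130208D14Rik at 0.218, all on chromosome 7 and on the same strand as Gvin1. Gm45912 is the next annotated gene to 9130208D14Rik and shares no 50-base word with the copies. It had 12.7 and 16.2 CPM in irradiated organoids, against 112 and 95.1 CPM in controls, at day 4, and 68.9 and 67.3 CPM in irradiated organoids, against 107 and 93.9 CPM in controls, at day 7. Its expected counts were whole numbers in all 8 libraries, unlike those of Gvin1.

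The next 2 genes were further away and lie on other chromosomes. Acss3, an enzyme that activates short-chain fatty acids, stood at 0.585, and Fads1, a desaturase of polyunsaturated fatty acids, at 0.6. Acss3 had 3.98 and 3.59 CPM in irradiated organoids, against 15.5 and 18.4 CPM in controls, at day 4, and 6.12 and 6.5 CPM in irradiated organoids, against 19.8 and 17.5 CPM in controls, at day 7. Fads1 had 113 and 93.5 CPM in irradiated organoids, against 347 and 330 CPM in controls, at day 4, and 245 and 258 CPM in irradiated organoids, against 352 and 336 CPM in controls, at day 7. These genes were picked for their likeness to Gvin1, so their values have no test.

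Irgm1, the regulatory IRG that guards host membranes and takes part in autophagy, was the most even of the tested GTPases, with a range of 0.81 on the log2 scale over the 8 libraries against 3.4 for Gvin1. It had 15.5 and 27.3 CPM in irradiated organoids, against 19.6 and 18.9 CPM in controls, at day 4. It had 16.8 and 20.5 CPM in irradiated organoids, against 15.7 and 16.5 CPM in controls, at day 7. At day 4 the irradiated libraries lay on either side of the controls, with the higher one in the library that stood apart. The log2 difference at day 4 was 0.15 (SE 0.226), and -0.31 without that library. At day 7 both irradiated libraries were above both controls, as were those of 33.3% of all tested genes, and the log2 difference of 0.21 (95% interval -0.32 to 0.74) did not pass the edgeR test (adjusted p = 0.629). The counts of Irgm1 were whole in all 8 libraries, and 99.7% of its 50-base words were its own.

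Irgm2 and Igtp, also known as Irgm3, are the other regulatory IRGs, and both were high in a single library. Irgm2 had 1.4 and 9.04 CPM in irradiated organoids, against 1.79 and 1.46 CPM in controls, at day 4. Igtp had 1.18 and 6.75 CPM in irradiated organoids, against 1.45 and 1.22 CPM in controls, at day 4. In both genes replicate 1 of the irradiated group lay below both controls and replicate 2, the library that stood apart, above all others. The day 4 differences of 1.68 for Irgm2 (SE 0.712) and 1.57 for Igtp (SE 0.708) on the log2 scale became -0.21 and -0.17 without that library.

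At day 7 both genes were near the limit of these libraries. Irgm2 had 0.714 and 0.481 CPM in irradiated organoids, against 0.644 and 1.01 CPM in controls, and the groups overlapped. Igtp had 0.102 and 0.361 CPM in irradiated organoids, against 0.644 and 1.2 CPM in controls, with no overlap, as in 65.9% of all tested genes in either direction. Neither difference passed the edgeR test: -0.46 for Irgm2 (95% interval -2.76 to 1.84, adjusted p = 0.824) and -2.01 for Igtp (95% interval -4.54 to 0.52, adjusted p = 0.3). Intervals this wide include large changes in either direction for Irgm2 and large falls for Igtp.

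Irgm2 and Igtp share reads as well: 243 words of 50 bases, which are 6.79% of those of Irgm2 and 11.8% of those of Igtp, occur in both. Their counts summed to whole numbers in every library, namely 24 and 145 in irradiated organoids, against 38 and 44 in controls at day 4, then 8 and 7 in irradiated organoids, against 12 and 24 in controls at day 7. The sum keeps the picture of the single genes, with 145 counts in the library that stood apart and at most 44 in any other. The log2 difference of the sum was -1.08 at day 7 (SE 1.05, edgeR adjusted p = 0.576).

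**Figure D3:**
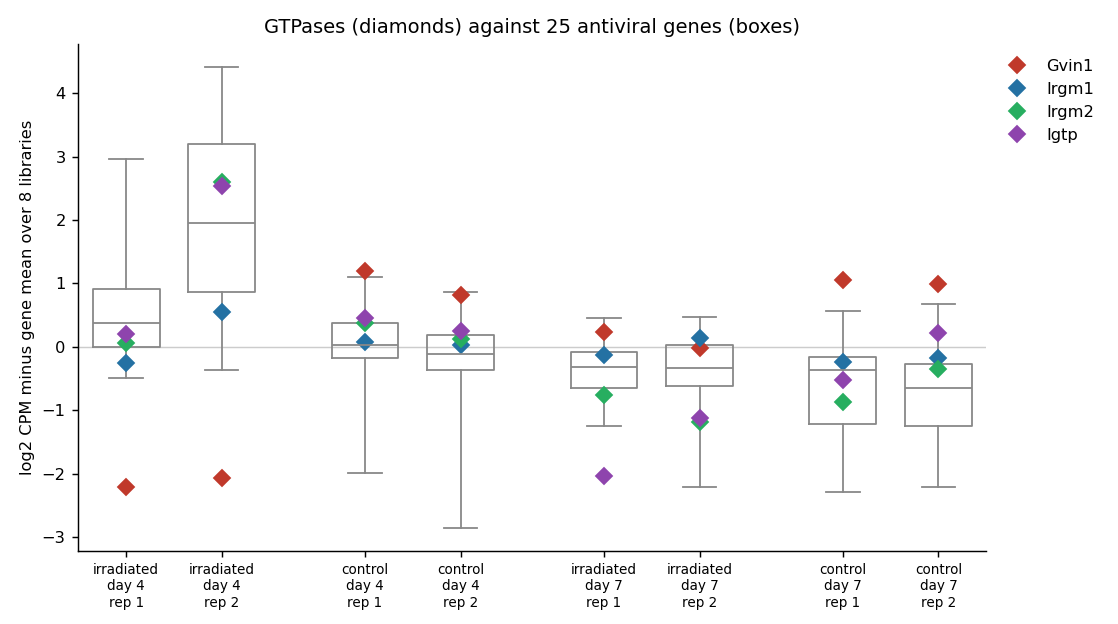
Levels of 25 antiviral genes (boxes with the median, quartiles and full range) and of 4 GTPases (diamonds) in each library, as log2 CPM minus the gene's own mean over the 8 libraries. In replicate 2 of the irradiated day 4 organoids the antiviral median is 1.95, Irgm2 and Igtp lie at 2.6 and 2.54, and Gvin1 lies at -2.06.

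Iigp1, an effector IRG that breaks open parasite vacuoles, had 0 to 2 counts in each library. It summed to 2 counts in irradiated organoids and 1 in controls on either day, a ratio of 3.04 at day 4 (95% exact interval 0.159 to 180) and of 2.23 at day 7 (0.116 to 132). These intervals and the floors below cover counting error only.

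Gbp2 and Gbp3, guanylate-binding proteins, were close to absent from the counts. Gbp2 had 1 count in irradiated organoids and 0 in controls on either day, where a count of 0 allows up to 0.107 CPM at day 4 and 0.149 CPM at day 7. Gbp3 had 0 and 5 counts in irradiated organoids, against 1 and 2 counts in controls, at day 4, and none in any library at day 7. Its 5 counts were in the library that stood apart.

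Gbp7, which acts against vacuoles of parasites, was the guanylate-binding protein with the most counts. It had 0.968 and 1.2 CPM in irradiated organoids, against 0.596 and 0.427 CPM in controls, at day 4. That is a ratio of 2.17 from 20 and 14 counts, which is a description with no test. At day 7 it had 0.408 and 0.12 CPM in irradiated organoids, against 0.966 and 0.368 CPM in controls. That is a ratio of 0.429 (95% exact interval 0.12 to 1.28) from 5 and 13 counts. Both ratios pool the libraries of a group, and the interval leaves out the spread between them. The groups did not overlap at day 4, as in 65.2% of all tested genes, and overlapped at day 7. Gbp7 shares 10.5% of its 50-base words with the annotated gene Gm43802, so that its counts too are in part an estimate.

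The rest of both families was hardly present. Of 9 further IRG genes, 3 had no count in any library and 1, Irgq, had enough to be tested. Irgq is a divergent IRG that is not known as an interferon target. It had 33.8 and 31 CPM in irradiated organoids, against 23.2 and 20.7 CPM in controls, at day 4 (log2 difference 0.56, edgeR adjusted p = 0.00358, but 0.30 and limma adjusted p = 0.32 on log2(TPM + 1)), and 28.4 and 27.4 CPM in irradiated organoids, against 29.8 and 29.3 CPM in controls, at day 7 (log2 difference -0.08, adjusted p = 0.701). Of 8 further GBP genes, 3 had no count and none could be tested. Gbp6 had its highest count, 9, in the library that stood apart, and 4 or fewer in the others.

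Other dynamin-like GTPases were looked at in the same way. Mx1, a GTPase of the Mx family whose protein was not measured here, had 1.4 and 1.74 CPM in irradiated organoids at day 4. Controls of that day had 0.0852 and 0 CPM. Both irradiated libraries were above both controls, as were those of 33.4% of all tested genes. As for other antiviral genes, this is a description at day 4. On day 7 Mx1 had 0.714 and 0.12 CPM in irradiated organoids, against 0.107 and 0.092 CPM in controls (edgeR adjusted p = 0.305). The atlastins, which fuse membranes of the endoplasmic reticulum, did not pass the test on either day. Atl2, for one, had 117 and 112 CPM in irradiated organoids, against 115 and 116 CPM in controls, at day 7.

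Interferon genes themselves were nearly silent. Of 21 interferon ligands, 18 had no count in any library, and Ifnk, Ifna1 and Ifnz had at most 3 counts in any one. All 9 receptor and kinase genes were tested, and 6 rose and 0 fell at day 4, where 20% of all tested genes were higher, 16.5% were lower and 36.5% were called in all. At day 7 none was called, against 8.65% of all tested genes. Ifnar2, a chain of the type I receptor, had 14.7 and 15 CPM in irradiated organoids, against 7.41 and 7.86 CPM in controls, at day 4 (log2 difference 0.96, edgeR adjusted p = 0.0019). Ifngr1, the ligand-binding chain of the type II receptor, had 124 and 147 CPM in irradiated organoids, against 129 and 155 CPM in controls, at day 4 (adjusted p = 0.633). Ifnlr1, the type III receptor chain of epithelia, had 19.8 and 19.6 CPM in irradiated organoids, against 11.4 and 15.5 CPM in controls (adjusted p = 0.0314). Without the library that stood apart, the median log2 difference of the 9 genes was 0.22, against 0.26 with it. The log2 difference of Ifnlr1 was then 0.54, as large as the 0.54 with that library. The call of Ifnlr1 was lost in 11 of 18 alternatives. On log2(TPM + 1) the difference of Ifnar2 was 0.50 (limma adjusted p = 0.141) and that of Ifnlr1 was 0.29 (0.411).

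Among 11 tested transcription factors of the pathway, 4 rose and 1 fell at day 4, and 1, Irf3, rose at day 7. These counts compare with 20% of all tested genes called higher and 16.5% lower at day 4, and 4.7% called higher at day 7. Irf1, a factor that interferons induce, had 12.6 and 15 CPM in irradiated organoids, against 8.09 and 8.47 CPM in controls, at day 4 (edgeR adjusted p = 0.00615), and on log2(TPM + 1) its difference was 0.41 (limma adjusted p = 0.164). Irf9, a partner of STAT2, had 12 and 28.3 CPM in irradiated organoids, against 17.3 and 15 CPM in controls, at day 4 (adjusted p = 0.496), so that its irradiated libraries lay on either side of the controls. Without the library that stood apart, the median log2 difference of the 11 genes was 0.42, against 0.62 with it.

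Of 7 tested feedback inhibitors, 2 rose and 1 fell at day 4, where 20% of all tested genes were called higher and 16.5% lower. None was called at day 7, against 8.65% of all tested genes. Usp18, which blocks the type I receptor, had 1.4 and 6.97 CPM in irradiated organoids, against 0.256 and 0.244 CPM in controls, at day 4 (edgeR adjusted p = 0.0041). Ptpn2, a phosphatase that dampens interferon signalling, had 47.6 and 47.8 CPM in irradiated organoids, against 65 and 60.5 CPM in controls (log2 difference -0.39, adjusted p = 0.00812). Without the library that stood apart, the median log2 difference of the 7 genes was 0.24, against 0.18 with it. The log2 difference of Usp18 was 4.01 with all libraries and 2.43 to 4.73 over all single-library omissions. Its call was lost in 2 of 17 alternatives.

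Antiviral genes were part of the reason for choosing the GTPases, so their day 4 counts are a description. Of 25 tested, 10 were called higher and 0 lower at day 4, against 20% and 16.5% of all tested genes. The median log2 difference was 1.5, against 0.0029 over all tested genes. Without the library that stood apart, the median was 0.32, against 0.0059 over all tested genes. Ifit1bl2, of the IFIT family that binds foreign RNA, had 24.2 and 51.4 CPM in irradiated organoids, against 0.596 and 0.244 CPM in controls, at day 4. Ddx58, which encodes the RNA sensor RIG-I, had 33.8 and 57.8 CPM in irradiated organoids, against 15.8 and 16.5 CPM in controls. At day 7 the median was 0.21 and 1 of 25 was called higher, against 4.7% of all tested genes. This was Ifit1bl1, with 2.14 and 2.17 CPM in irradiated organoids, against 0.215 and 0.184 CPM in controls (edgeR adjusted p = 0.00819).

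IRG and GBP proteins work with the conjugation machinery of autophagy and with inflammasomes. Of 11 autophagy conjugation genes, 7 rose and 0 fell at day 4, and Gabarap, of the Atg8 family that GTPase loading on vacuoles needs, rose at day 7. Over all tested genes, 20% were called higher and 16.5% lower at day 4, and 4.7% and 3.95% at day 7. Gabarap had 145 and 163 CPM in irradiated organoids, against 103 and 99 CPM in controls, at day 4 (edgeR adjusted p = 0.000334, limma adjusted p = 0.0822 on log2(TPM + 1)), and 130 and 132 CPM in irradiated organoids, against 103 and 106 CPM in controls, at day 7 (adjusted p = 0.0371). Of 10 tested inflammasome genes, 2 rose and 2 fell at day 4, near those shares. Il18, a cytokine that inflammasomes release, rose at day 7. Il18 had 11.2 and 15.6 CPM in irradiated organoids, against 1.79 and 1.04 CPM in controls, at day 4 (adjusted p = 3.63e-05), and 5.31 and 5.9 CPM in irradiated organoids, against 2.04 and 2.21 CPM in controls, at day 7 (adjusted p = 0.025). Pycard, the adaptor of inflammasomes, had 25.4 and 24 CPM in irradiated organoids, against 49.8 and 43.8 CPM in controls, at day 4 (adjusted p = 0.000124).

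Over all pathway lists, 33 of 79 tested genes were called higher and 4 lower at day 4, where 20% and 16.5% of all tested genes were, and 10 of the 33 are the antiviral genes above, whose day 4 values helped to choose the set. At day 7, 4 were called higher and 0 lower, against 4.7% and 3.95% of all tested genes. Without the library that stood apart, the median log2 difference of the pathway genes at day 4 was 0.29, against 0.54 with it. For the autophagy conjugation genes it was 0.523, against 0.605 with that library. The 4 day 7 calls, of Irf3, Ifit1bl1, Gabarap and Il18, had adjusted p over 0.05 when any 1 of the 4 day 7 libraries was left out. Their log2 differences over all single-library omissions ran from 0.33 to 0.52 for Irf3 (0.4 with all libraries), 3.25 to 3.46 for Ifit1bl1 (3.37), 0.29 to 0.39 for Gabarap (0.33) and 1.33 to 1.51 for Il18 (1.39).

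**Figure D4:**
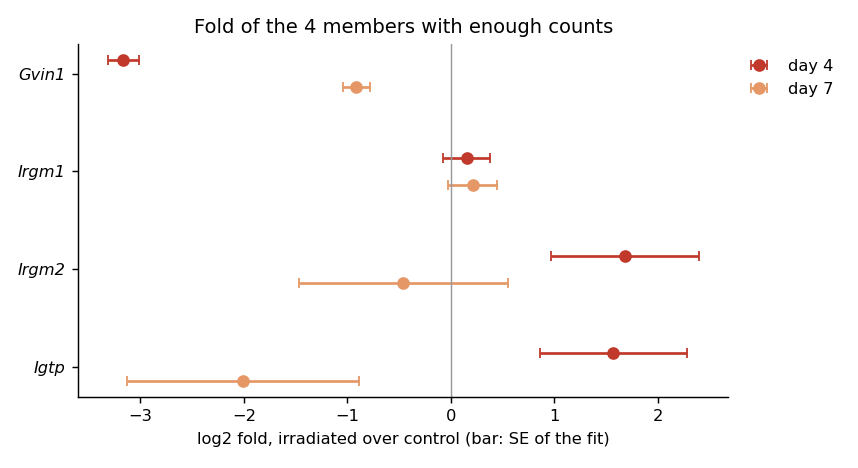
Log2 difference between irradiated and control organoids at day 4 (upper point of each pair) and day 7 (lower point) for the 4 GTPases with enough counts, with bars for the standard error of the fit. Gvin1 lies at -3.17 and -0.92 with narrow errors, Irgm1 lies near 0 on both days, and Irgm2 and Igtp have wide errors, with day 4 values of 1.68 and 1.57 that rest on 1 library.

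Relative to its own mean over the 8 libraries, Gvin1 was at -2.21 and -2.06 on the log2 scale in replicates 1 and 2 of the irradiated day 4 organoids. In the same libraries Irgm2 was at 0.06 and 2.6, Igtp at 0.2 and 2.54 and Irgm1 at -0.26 and 0.56. Over the 8 libraries the root mean square difference of centred log2 CPM was 0.516 between Irgm2 and Igtp, which share part of their reads, 0.931 between Irgm1 and Irgm2, and 1.4, 2.12 and 2.16 between Gvin1 and Irgm1, Irgm2 and Igtp in that order. The distances of Gvin1 include the day 4 levels that led to the set, so they are a description.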

How the data were processed

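RNA of 8 libraries was poly-A selected and made into directional libraries, per the labels' protocols. The authors deposited 1 table of expected counts per gene and 1 of TPM, per the file headers. The submitters' processing notes name STAR 2.7.3a, RSEM 1.3.3, Trim Galore and FastQC, and list mm10 as well as GRCm39 with no role for either. Which annotation release and which strand setting the counting used is not given in the sources used here. Symbols, gene order and transcripts came from GENCODE M21, used for names, neighbours and shared words only.

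The members and lists were chosen with earlier results of these data known. Expected counts were rounded and fitted with edgeR 4.0.16 in R 4.3.3 (quasi-likelihood F-test, robust, TMM scaling, 4 group means, 8 libraries, 4 residual degrees of freedom). Genes passed filterByExpr with a minimum count of 10 and a minimum total of 15, which left 14063. P-values were two-sided, adjusted by Benjamini-Hochberg over all of these, and called under 0.05. Log2 CPM used a prior count of 2, and words had 50 bases. The scripts were tested on simulated data. CPM in the text are from rounded counts over TMM-scaled library sizes, and levels between genes were compared on the deposited TPM.

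Named were the 8 members, the tested genes of the GTPase lists, 6 interferon genes set by name (1 of which is not reported here), up to 3 called genes of each other list per day, and the 5 genes nearest to Gvin1 with a mean of at least 5 CPM. Gbp6, Ifnk, Ifna1, Ifnz, Gm4070, Csf1r, Itgam and Ptprc were named after their values were seen. Of the listed symbols, 10 were not matched. Endothelial and mesenchymal markers were also read, summing to 2.9 to 5.33 and 19.8 to 22.3 CPM in irradiated organoids, against 3.24 to 4.08 and 17 to 17.2 CPM in controls, at day 4.

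Alternatives were scaling by DESeq2 size factors, no filter, a minimum of 5 CPM in 2 libraries, DESeq2 1.42.0 in full, limma-voom, limma-trend (limma 3.58.1) on log2(TPM + 1) and log2(TPM + 0.1) where 2 libraries reached a TPM of 1, a fit of the compared groups alone, a replicate block, each library left out in turn and, added after the data had been seen, the counts of copies that share words summed.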

Additional observations from a re-analysis of the deposited data

Results flagged for a closer look

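For the 4 tested GTPases the difference between the days has no test, since it uses the day 4 values by which they were chosen. Among the other pathway genes picked by the naming rule given above, 7 were called by the interaction term of the edgeR fit. That term called 10.1% of all tested genes. The 7 are given for their values, and their number is not compared with that share. Each of them but Irgq was picked for a small p at day 4. The term uses the same day 4 libraries, so that choice favours a difference between the days. The 7 calls are therefore a description. The values are the day 7 effect less the day 4 effect on the log2 scale, with adjusted p. The differences were -0.65 for Irgq (0.0331), -0.73 for Il10rb (0.029), -0.51 for Ifnar1 (0.0362) and -0.67 for Gabarapl2 (0.0217). They were -1.88 for Il18 (0.0265), -1.12 for Naip1 (0.0135) and 1.19 for Pycard (0.00211). The irradiated libraries were above both controls at day 4 in 6 of these genes and below them in Pycard. Over all tested genes, they lay above both controls in 33.4% and below both in 31.8% at day 4.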

How the results depend on the processing

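The settings changed no direction of Gvin1 at day 7. The call was lost in 4 of 18, given with their values above, and 1 of the 18 puts the sum of the copies in place of Gvin1. Genes called at day 4 numbered 5130 in the main fit, 2836 on log2(TPM + 1), 2783 on log2(TPM + 0.1) and 3228 with the groups compared alone. At day 7 they numbered 1216 in the main fit, 2044 with no filter, 387 and 389 on the 2 TPM scales, 4732 with the groups compared alone, and 105 to 2341 with each library left out. TPM moved the median of all genes by -0.171 and -0.201 at day 4 and by 0.118 and 0.13 at day 7, and on log2(TPM + 1) 1104 genes were called higher and 1732 lower at day 4, against 2808 and 2322 in the main fit. Members called at day 7 numbered 1 in the main fit, 0 on both TPM scales, and 0 to 1 with each library left out. Pathway genes called at day 4 numbered 37 in the main fit, 15 on log2(TPM + 1), 14 on log2(TPM + 0.1), 22 with the groups compared alone, and 24 to 51 with each library left out. At day 7 they numbered 4 in the main fit, 10 with no filter, 2 with limma-voom, 2 on log2(TPM + 1), 24 with the groups compared alone, and 0 to 11 with each library left out. The cause was not tested. The 4 groups share 1 estimate of spread in the main fit, but their replicates differed unequally. Chi-square per degree of freedom between replicates, over the tested genes, was 21.4 in controls and 31.9 in irradiated organoids at day 4. At day 7 it was 6.19 in controls and 3.46 in irradiated organoids. The part of this in the calls was not tested. Same-numbered replicates showed no shared deviation (correlations across genes -0.0355 to 0.0581). With 2 libraries per group, this cannot show whether the numbers pair the libraries. With the replicate block 5153 genes were called at day 4 and 1245 at day 7, 35 and 4 of them in the pathway lists, and Gvin1 was at -0.92 at day 7 (adjusted p = 0.00179). Depth limits Irgm2, Igtp, Iigp1 and the GBP genes, whose counts per library ran from 0 to 82.91.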
